A study of Mus musculus with 9 samples.

Results

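The genes described here are the bile acid receptor FXR (gene Nr1h4), the repressor SHP (Nr0b2) and 8 liver membrane transporters of bile acids, phospholipid and sterols: Abcb11, Abcb4, Abcg5, Abcg8, Slc10a1, Slco1a1, Slco1b2 and Abcc3. They were chosen by gene symbol, and all 10 were found among the 57010 genes of the deposited tables. Expression was measured by RNA sequencing of whole liver from male BALB/c mice in 9 libraries, 3 for each of 3 groups. CON livers had no treatment. CPT and AT3 livers both carry the treatment label of acute liver injury caused by cisplatin, a platinum drug used against cancer, so AT3 differs from CPT by its title alone. The sources used here do not spell out AT3, nor give the dose, route, time or age. No label says that the 3 libraries of a group came from separate mice, so the p-values below measure the spread between these libraries, which may be technical.

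Bile acids are made from cholesterol in hepatocytes, pumped into bile and taken up again from portal blood. FXR is the nuclear receptor that bile acids activate. In liver it raises the repressor SHP and the export pumps, and SHP in turn restrains bile acid synthesis and uptake. Uptake runs through the sodium-coupled carrier NTCP (Slc10a1) and the organic anion carriers OATP1A1 (Slco1a1) and OATP1B2 (Slco1b2) on the blood side. BSEP (Abcb11) secretes bile salts across the canalicular membrane, MDR2 (Abcb4) moves phosphatidylcholine into bile, and the pair ABCG5 and ABCG8 moves cholesterol and plant sterols. MRP3 (Abcc3) exports conjugated bile acids back to blood.

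The libraries held 21485021 to 28480479 estimated counts. The share of counts from mitochondrially encoded genes was 25.8% to 36.8% for CON, 11.2% to 16.3% for CPT and 9.80% to 11.4% for AT3. Haemoglobin genes took 0.0594% to 0.0693% in CON and at most 0.000675% in CPT and AT3. Levels below are CPM, counts per library total scaled by TMM (edgeR's library scaling), or TPM, the deposited values per length. Fold changes come from edgeR's quasi-likelihood test over 13686 genes, and a gene is called at a Benjamini-Hochberg adjusted p below 0.05. On the TPM scale the median gene stood 0.29 higher in CPT than in CON (log2(TPM + 1)), against -0.02 in counts, and 0.32 higher in AT3, against -0.04, so TPM values are given where a direction or call of the 10 genes turned.

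In CPT against CON, 7 of the 10 genes were called, 2 higher (Nr1h4 and Slc10a1) and 5 lower (Nr0b2, Slco1a1, Abcb11, Abcc3 and Abcg8). Calls were common in this comparison: 60.8% of all genes tested were called, 30.0% higher and 30.8% lower. The median log2 fold change of the 10 genes was -0.36, against -0.02 over all genes tested, and on the TPM scale it was 0.11, against 0.29. CPM values of the 2 groups did not overlap for 6 of the 10, against 64.2% of all genes tested, and 7 of the 10 had an unadjusted p below 0.05, against 64.6%. On the TPM scale 4 were called higher and 3 lower, because Abcg5 and Slco1b2 were then called higher and Abcc3 and Abcg8 lost their calls. Of all 13686 genes tested, 6631 were called higher on that scale and 1604 lower. In whole liver, fewer cells of a type and less RNA per cell cannot be told apart.

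**Figure D1:**
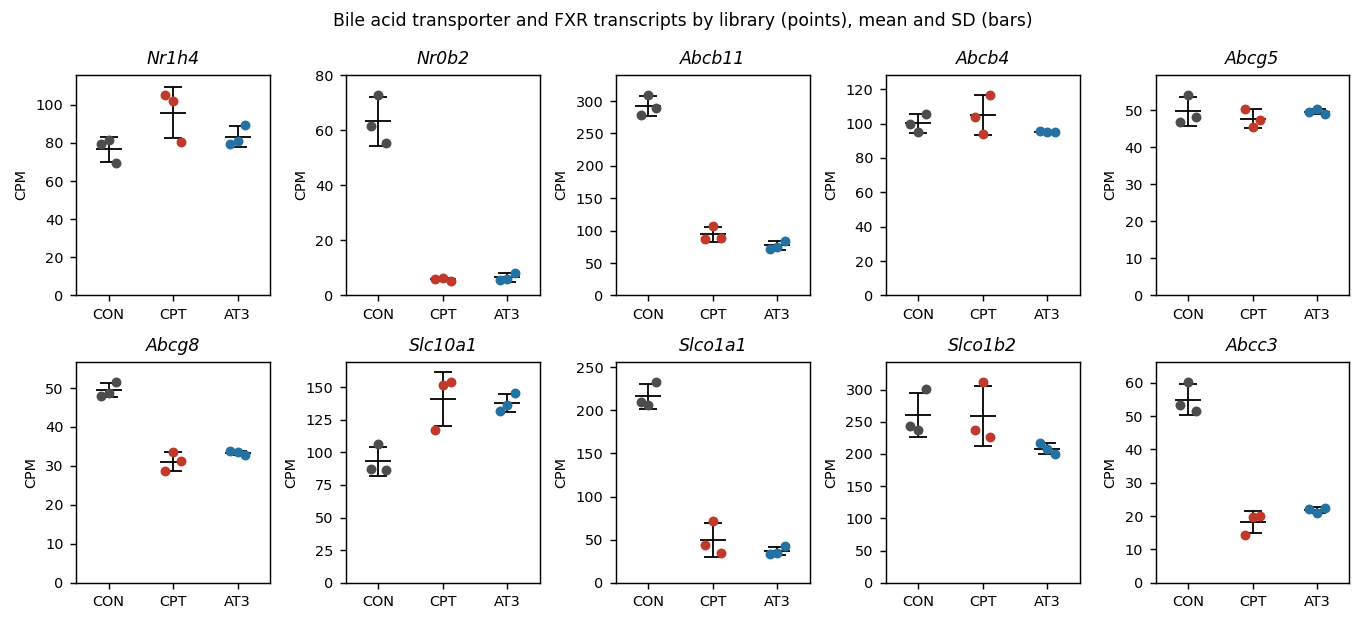
Level of each of the 10 genes in every library (TMM-scaled CPM, linear axes from 0), with points for libraries and bars for the mean and SD of each group. Nr0b2, Abcb11, Slco1a1 and Abcc3 lie lower in all 6 CPT and AT3 libraries than in the 3 CON libraries (for Abcc3 the groups overlap in TPM), Slc10a1 lies higher, and Abcb4 and Abcg5 overlap.

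Among the regulators, the receptor and its repressor gene parted. Nr1h4 (ENSMUSG00000047638, chromosome 10, 89454234 to 89533585, minus strand) stood at 79.3, 81.5 and 69.2 CPM in the CON libraries, at 105.3, 101.7 and 80.7 in CPT and at 79.2, 81.1 and 89.6 in AT3. CPT replicate 3 lay inside the CON range, so the groups overlapped. Nr1h4 was called 1.25-fold higher in CPT than in CON (log2 fold change 0.32 ± 0.11 (SE), adjusted p = 0.0203). The call was lost without CON replicate 3 (0.26, adjusted p = 0.0761) and without CPT replicate 2 (0.29, adjusted p = 0.0608). AT3 against CON gave 0.12 ± 0.11 (adjusted p = 0.362), while on the TPM scale the same comparison was called at 0.78 (adjusted p = 0.0015).

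Nr0b2 (ENSMUSG00000037583, chromosome 4, 133553376 to 133556536, plus strand) was the gene with the largest change of the 10. Its level was 61.4, 73.0 and 55.6 CPM in CON, 5.94, 6.26 and 5.27 in CPT, and 5.45, 5.86 and 8.27 in AT3. Every CPT and AT3 library lay below every CON library by a wide gap. The fall was 10.9-fold in CPT (log2 fold change -3.44 ± 0.15, adjusted p = 6.51e-11) and 9.74-fold in AT3 (-3.28 ± 0.15, adjusted p = 8.24e-11). CPT and AT3 overlapped, with a difference of 0.16 ± 0.16 (adjusted p = 0.639).

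The bases just before the start site of Nr0b2 are shown because this gene moved most. They come from RefSeq (GRCm38.p6), chr4:133553256-133553375, plus strand, 5′ to 3′, and capitals mark 2 TCAAGG runs and a TATAAA run. TCAAGG is part of the kind of extended monomer that orphan nuclear receptors such as LRH-1 bind.
Nr0b2: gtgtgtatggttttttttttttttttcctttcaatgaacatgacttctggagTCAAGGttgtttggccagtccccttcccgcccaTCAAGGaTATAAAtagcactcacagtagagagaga
The 2 TCAAGG runs begin 68 and 35 bases before the start site and TATAAA begins 28 bases before it. TCAAGG, searched on both strands after the sequences were seen, occurs in 14.4% of 32851 RefSeq promoter windows of 300 bases, and TATAAA in 13.6%. Nr0b2 was the single gene of the 9 with a RefSeq window here that held TCAAGG. The other run, marked nearest the start site, was held on 1 strand or the other by 6 of these 9 genes, Nr0b2 among them. A match is a run of letters and not a measured site.

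Of the canalicular pumps, the bile salt pump gene fell and the phospholipid gene was not called. Abcb11 (ENSMUSG00000027048, chromosome 2, 69238282 to 69342616, minus strand) stood at 279.2, 309.9 and 289.6 CPM in CON, at 86.8, 107.9 and 88.5 in CPT and at 71.8, 75.2 and 84.3 in AT3. The 3 groups formed 3 separate ranges, with CON highest and AT3 lowest. It fell 3.10-fold in CPT against CON (-1.63 ± 0.11, adjusted p = 4.35e-09) and 3.80-fold in AT3 against CON (-1.93 ± 0.11, adjusted p = 6.30e-10). The difference of AT3 from CPT, -0.29 ± 0.11, was not called (adjusted p = 0.127). Annotated exons of Abcb11 share bases with 2 other genes, the most, 136 bases, with Gm13613 on the opposite strand. Whether the counting used strand is not stated.

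The Abcb11 bases before the start site are shown because FXR is known to act on this promoter through an inverted repeat, IR1 (GGTCA and TGACC with any 1 base between them). They come from RefSeq (GRCm38.p6), chr2:69342617-69342736, printed 5′ to 3′ on the minus strand, and capitals mark the run of letters that differs from IR1 at 1 base.
Abcb11: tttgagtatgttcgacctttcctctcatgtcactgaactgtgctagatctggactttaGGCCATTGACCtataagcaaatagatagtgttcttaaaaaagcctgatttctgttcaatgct
This run begins 62 bases before the start site. IR1 with no mismatch was found in 0.0396% of the 32851 windows and in none of the 9 genes' windows. With at most 1 mismatch, a choice added after seeing the data, it was found in 0.758% of windows and in 2 of the 9 genes, Abcb11 and Slco1b2. These 2 genes differed in their values: Abcb11 fell in CPT, and Slco1b2 was not called in counts (-0.01) and was called higher on the TPM scale (0.57). On log2(TPM + 0.1) Slco1b2 stood at 0.58, against an all-gene median of 0.51. The letters AGGTCA, a single arm of such a repeat, which overlap the Abcb11 run on the other strand, occur in 16.3% of windows and in 5 of the 9 genes.

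Abcb4 (ENSMUSG00000042476, chromosome 5, 8893717 to 8959231, plus strand) stood at 99.8, 94.8 and 105.8 CPM in CON, 104.0, 93.9 and 116.8 in CPT, and 95.4, 95.1 and 95.1 in AT3. The 3 groups overlapped, and neither CPT (0.07 ± 0.10, adjusted p = 0.564) nor AT3 (-0.07 ± 0.10, adjusted p = 0.519) was called against CON. The level of Abcb11 relative to Abcb4, as a ratio of TPM, was 7.01, 9.03 and 6.92 in CON, 2.39, 2.93 and 1.96 in CPT and 1.60, 1.81 and 2.26 in AT3. CON lay above both other groups without overlap (exact two-sided permutation p = 0.1, the smallest that 3 against 3 libraries can give; adjusted p = 0.129 over 18 ratio tests). The size of this ratio depends on the lengths used. Per kilobase of the deposited gene length, the CON means were 58.29 CPM for Abcb11 and 24.55 for Abcb4.

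The paired sterol transporter genes did not move as a pair. Abcg8 (ENSMUSG00000024254, chromosome 17, 84676302 to 84700333, plus strand) stood at 48.0, 48.8 and 51.6 CPM in CON, 28.6, 33.5 and 31.2 in CPT, and 33.8, 33.7 and 32.8 in AT3. In counts it fell 1.59-fold in CPT (-0.67 ± 0.09, adjusted p = 1.15e-05) and 1.48-fold in AT3 (-0.57 ± 0.09, adjusted p = 5.09e-05), but on the TPM scale the sign turned, to 0.07 (adjusted p = 0.658) and 0.25 (adjusted p = 0.132). Abcg5 (ENSMUSG00000040505, chromosome 17, 84658234 to 84683011, minus strand) stood at 46.9, 54.2 and 48.1 CPM in CON, 50.4, 45.5 and 47.4 in CPT, and 49.4, 50.3 and 48.9 in AT3. The Abcg5 ranges overlapped and it was not called in counts (-0.06 and -0.01), while on the TPM scale it was called higher in CPT (0.50, adjusted p = 0.0143) and AT3 (0.64, adjusted p = 0.0032). These TPM values lay near the shift of all genes. On log2(TPM + 0.1), Abcg5 stood at 0.53 in CPT and 0.68 in AT3, against all-gene medians of 0.51 and 0.57.

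The ratio of Abcg8 to Abcg5 is free of library scaling. In TPM it was 0.624, 0.549 and 0.657 in CON, 0.386, 0.514 and 0.446 in CPT, and 0.466, 0.451 and 0.461 in AT3. Both CPT and AT3 lay below CON without overlap (exact permutation p = 0.1, adjusted p = 0.129), and they overlapped with each other (p = 0.7). The ratio of estimated counts gave 0.998, 0.654 and 0.674 as group means, in the same order. The 2 genes lie on opposite strands and overlap, and their annotated transcripts share 82 exonic bases on opposite strands, whose reads cannot be assigned without strand.

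The segment between RefSeq's start sites of Abcg5 (84683011) and Abcg8 (84683121) is shown because the 2 promoters share it. The GENCODE span of Abcg8 printed above begins earlier, at 84676302, inside Abcg5. It comes from RefSeq (GRCm38.p6), chr17:84683012-84683120, printed 5′ to 3′ on the plus strand toward Abcg8, with no capitals because no motif is at issue.
Abcg8: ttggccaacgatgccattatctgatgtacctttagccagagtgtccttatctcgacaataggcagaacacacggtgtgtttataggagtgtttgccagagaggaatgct
The segment is 109 bases long, so the windows of Abcg5 and Abcg8 cover largely the same bases. Neither window held AGGTCA or IR1 with at most 1 mismatch.

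On the blood side, the 3 uptake carriers took 3 courses. Slc10a1 (ENSMUSG00000021135, chromosome 12, 80953183 to 80968705, minus strand) stood at 87.1, 106.1 and 86.5 CPM in CON, 116.9, 151.9 and 153.9 in CPT and 131.5, 136.4 and 145.4 in AT3. All CPT and AT3 libraries lay above all CON libraries. It rose 1.51-fold in CPT (0.60 ± 0.12, adjusted p = 0.000435) and 1.48-fold in AT3 (0.56 ± 0.12, adjusted p = 0.000621). Of the 2 genes called higher in CPT, it was the gene whose call held when any single library was left out.

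Slco1a1 (ENSMUSG00000041698, chromosome 6, 141907282 to 141946962, minus strand) stood at 209.3, 206.6 and 232.9 CPM in CON, 43.5, 71.5 and 34.2 in CPT and 33.8, 34.4 and 42.2 in AT3. CPT replicate 2 was the highest of the injured livers and still lay far below CON. The fall was 4.34-fold in CPT (-2.12 ± 0.20, adjusted p = 2.11e-07) and 5.88-fold in AT3 (-2.56 ± 0.20, adjusted p = 2.75e-08).

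Slco1b2 (ENSMUSG00000030236, chromosome 6, 141629518 to 141686646, plus strand) stood at 244.1, 237.5 and 300.3 CPM in CON, 237.6, 311.8 and 226.1 in CPT and 217.3, 207.5 and 199.7 in AT3. CON and CPT overlapped, and in counts the difference was -0.01 ± 0.13 (adjusted p = 0.944), whereas on the TPM scale it was called at 0.57 (adjusted p = 0.0068). On log2(TPM + 0.1) this difference was 0.58, against an all-gene median of 0.51. AT3 lay just below CON and was called 1.25-fold lower in counts (-0.32 ± 0.13, adjusted p = 0.0336), while on the TPM scale the sign turned to 0.36 (adjusted p = 0.0544). The call in counts was lost with no filter on low counts (-0.23, adjusted p = 0.0906), with the replicate block (-0.32, adjusted p = 0.0513), and without CON replicate 3 (-0.20, adjusted p = 0.188), CPT replicate 1 (0.0655) or any of AT3 replicates 1, 2 and 3 (0.0635, 0.0906 and 0.120), the adjusted p standing in parentheses.

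As a share of the summed TPM of the 3 uptake carriers, which cancels library scaling, Slc10a1 took 30.2%, 35.0% and 26.8% in CON, 47.4%, 46.2% and 56.0% in CPT and 53.0%, 54.9% and 56.6% in AT3. Slco1a1 took 29.8%, 27.9% and 29.3% in CON, 7.29%, 9.07% and 5.21% in CPT and 5.71%, 5.76% and 6.80% in AT3. Both shares separated CON from the other 2 groups (exact permutation p = 0.1, adjusted p = 0.24 over 12 tests of shares and sums). Slco1b2 held 36.6% to 45.4% in all 9 libraries.

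The blood-side exporter Abcc3 (ENSMUSG00000020865, chromosome 11, 94343295 to 94392997, minus strand) stood at 53.2, 60.2 and 51.4 CPM in CON, 14.3, 19.9 and 20.1 in CPT and 22.1, 20.9 and 22.5 in AT3. CON lay above both other groups, and AT3 lay just above CPT with no overlap. In counts it fell 3.04-fold in CPT (-1.60 ± 0.12, adjusted p = 2.54e-08) and 2.52-fold in AT3 (-1.33 ± 0.12, adjusted p = 1.35e-07). On the TPM scale these falls were -0.58 (adjusted p = 0.107) and -0.19 (adjusted p = 0.598) and were not called. No RefSeq promoter entry was matched for Abcc3.

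**Figure D2:**
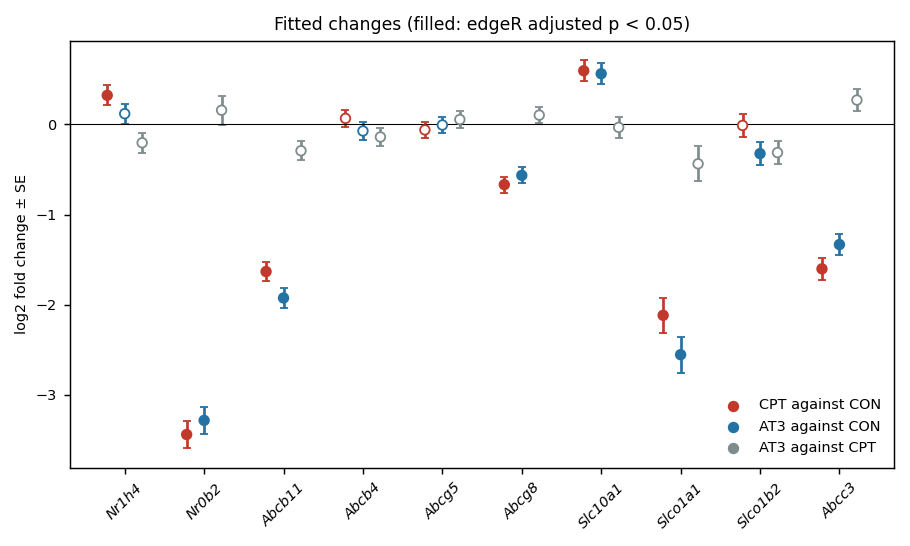
Log2 fold change with its SE for the 10 genes in CPT against CON, AT3 against CPT and AT3 against CON (edgeR on counts), with filled points for an adjusted p below 0.05. Nr0b2, Slco1a1, Abcb11 and Abcc3 lie lowest in both comparisons with CON, no AT3 against CPT point is filled, and on the TPM scale Abcc3 lost its call while the signs of Abcg8, Slco1b2 and Abcg5 turned.

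AT3 against CPT gave no call among the 10 genes by edgeR, and none by DESeq2. Over all genes tested 4.68% were called, 2.46% higher and 2.22% lower. An unadjusted p below 0.05 was reached by 4 of the 10 (Abcb11, Slco1a1, Slco1b2 and Abcc3), against 20.7% of all genes tested, and libraries did not overlap for 3 of the 10 (Abcb11, Slco1b2 and Abcc3), against 27.0%. The median of the 10 was -0.09, against 0 over all genes. Values were -0.44 ± 0.19 for Slco1a1 (adjusted p = 0.211), -0.31 ± 0.13 for Slco1b2 (0.169) and 0.27 ± 0.12 for Abcc3 (0.225). Slco1a1 was called lower without CPT replicate 3 (-0.64, adjusted p = 0.0211) and with no filter on low counts (-0.43, adjusted p = 0.00509).

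The count over all genes in AT3 against CPT depended on single libraries. It was 641 with all libraries and 354, 229 and 1316 without CPT replicates 1, 2 and 3. Without AT3 replicates 1, 2 and 3 it was 178, 172 and 228. The limma test on log2(TPM + 1) called 45 genes.

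In AT3 against CON, 7 of the 10 genes were called, Slc10a1 higher and Nr0b2, Abcb11, Slco1a1, Slco1b2, Abcc3 and Abcg8 lower. Of all genes tested 64.4% were called, 31.5% higher and 32.9% lower. Libraries did not overlap for these 7 of the 10, against 70.3% of genes tested, and the 7 had an unadjusted p below 0.05, against 67.6%. The median was -0.44, against -0.04 over all genes, and on the TPM scale it was 0.12, against 0.32, with 3 called higher and 3 lower. Of all 13686 genes tested, 7017 were called higher on that scale and 1698 lower. CPT against CON and AT3 against CON share the CON libraries.

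Ratios between genes of different roles showed the same groups apart. The TPM ratio of repressor to receptor, Nr0b2 to Nr1h4, was 1.49, 1.72 and 1.54 in CON, 0.110, 0.119 and 0.127 in CPT and 0.133, 0.140 and 0.179 in AT3. All 3 groups were separate, with AT3 above CPT. The TPM ratio of the bile salt pump gene to the sodium-coupled carrier gene, Abcb11 to Slc10a1, was 6.23, 5.66 and 6.90 in CON, 1.19, 0.990 and 0.742 in CPT and 0.614, 0.613 and 0.687 in AT3. Here too the 3 TPM ranges were separate, with AT3 below CPT, but in estimated counts CPT (0.743, 0.710 and 0.575) and AT3 (0.546, 0.552 and 0.580) overlapped. The size of this TPM ratio depends on the length used for Abcb11, as given below. Per kilobase of the deposited gene length, the CON means were 58.3 CPM for Abcb11 and 53.3 for Slc10a1.

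The ratio of the blood-side to the canalicular exporter gene, Abcc3 to Abcb11, was 0.0539, 0.0585 and 0.0407 in TPM in CON, 0.0549, 0.101 and 0.140 in CPT and 0.158, 0.211 and 0.175 in AT3. AT3 lay above both other groups and CPT overlapped CON. In estimated counts the means were 0.188, 0.192 and 0.284, again with AT3 apart. Per kilobase of the deposited gene length, the CON means were 11.0 CPM for Abcc3 and 58.3 for Abcb11. Of the 18 ratio tests, 14 had groups that did not overlap, each at the smallest p of 0.1 and an adjusted p of 0.129.

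**Figure D3:**
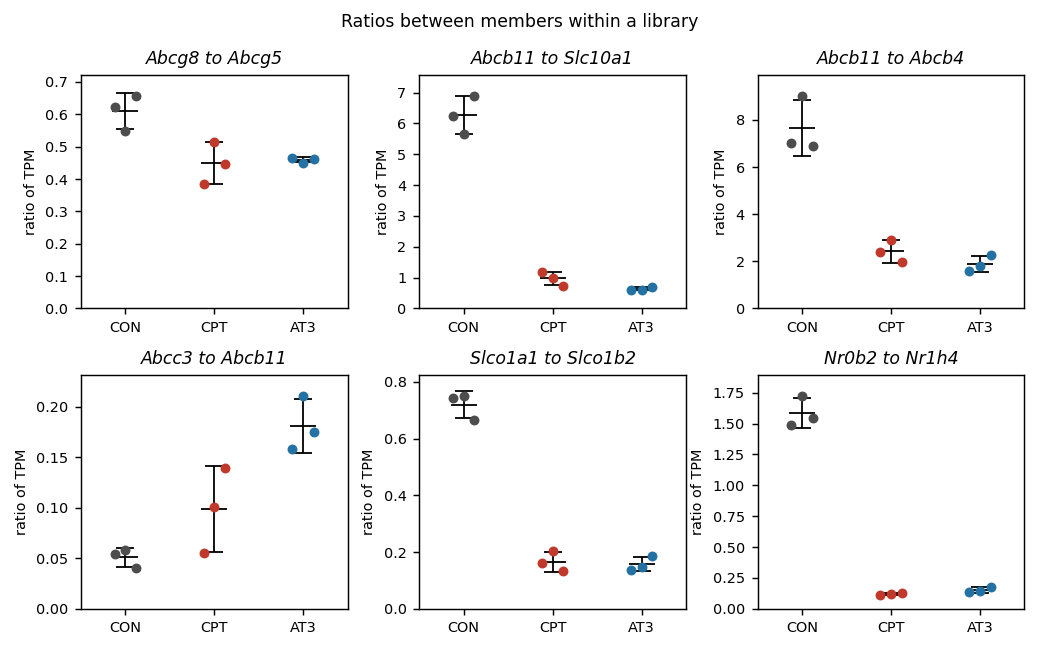
Ratios between pairs of the 10 genes in every library (deposited TPM, linear axes from 0), with points for the 9 libraries and bars for the mean and SD of each group. CON lies apart from AT3 for all 6 ratios and from CPT for all except Abcc3 to Abcb11.

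The order of the 10 genes by level per length also differed between groups. In CON, Abcb11 stood first at 243 ± 44.5 TPM (SD, n = 3) and its range lay above that of Slco1b2, next at 51.0 ± 3.90. Slco1b2, Nr0b2, Slc10a1 and Slco1a1 followed with ranges that overlapped from each to the next, then Abcb4 and Nr1h4, which overlapped, then Abcg5, Abcc3 and Abcg8 at 14.5, 12.6 and 8.74 TPM. In CPT, Slc10a1 (89.1 ± 17.4), Abcb11 (84.6 ± 11.8) and Slco1b2 (76.9 ± 16.0) overlapped at the top. Nr0b2 had the lowest mean there, 5.86 ± 0.530, with a range inside that of Abcc3 (4.50 to 10.37 TPM). In AT3, Slc10a1 (92.1 ± 2.57) lay above Slco1b2 (65.7 ± 5.23) and Abcb11 (58.8 ± 4.34), which overlapped, and Nr0b2 was again lowest at 6.95 ± 1.31.

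The places of Abcb11 and Nr0b2 depended on the length used. With CPM per kilobase of the deposited gene length, an order added after seeing the data, Abcb11 ranked 3 in CON, 6 in CPT and 6 in AT3, against 1, 2 and 3 by TPM. In CON, Slco1b2 was then highest at 78.8 CPM per kilobase, followed by Slco1a1 at 63.7 and Abcb11 at 58.3. By the same measure Abcc3, not Nr0b2, was lowest in CPT (3.615 against 5.142) and in AT3 (4.361 against 5.766), without overlap.

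The length behind each TPM value can be read back by dividing the estimated count by the TPM, which gives an implied length once scaled by 220 genes with a single annotated transcript. For Abcb11 it was 801, 803 and 755 bases in CON, 972, 1116 and 1203 in CPT and 1382, 1396 and 1310 in AT3. The 3 groups did not overlap, with the CPT mean 1.40 times and the AT3 mean 1.73 times that of CON (exact permutation p = 0.1 each, adjusted p = 0.273 over 30 tests). GENCODE M21 gives Abcb11 3 protein-coding transcripts of 4893 to 5025 bases and a processed transcript of 648 bases. The implied length in CON was nearer to the short transcript than to the coding ones. The scale was set by genes of at least 2000 bases and can read below the annotated length of short transcripts. Nr0b2, with 1 transcript of 1132 bases, read 976 in CON.

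For Abcb4 the implied length was 2045 ± 157 bases in CON, 2914 ± 177 in CPT and 3152 ± 204 in AT3 (SD, n = 3), and CON did not overlap the others. Its annotation holds coding transcripts of 4079 and 2791 bases and retained introns of 3319, 1979 and 680. Abcg8 moved the other way, with 3686, 3666 and 3675 bases in CON, 3311, 3247 and 3343 in CPT and 3288, 3336 and 3282 in AT3, and CON overlapped neither. Abcc3 overlapped between groups, at 2931 ± 322, 2305 ± 535 and 2177 ± 455 bases. For Nr1h4, Nr0b2, Slc10a1, Slco1b2 and Abcg5 the group means stayed within 0.994 to 1.01 times that of CON, and for Slco1a1 at 0.979.

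Such shifts were seen in other genes as well. Among 5430 genes with more than 1 transcript, groups did not overlap for 37.9% in CPT against CON, 19.5% in AT3 against CPT and 48.9% in AT3 against CON. A shift of at least 1.5-fold without overlap was seen in 2.39%, 0.129% and 5.51%, and Abcb11 and Abcb4 met it in AT3 against CON (1.73 and 1.54). Which transcripts were sequenced was not measured by these gene tables, and the cause of the shift was not tested.

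**Figure D4:**
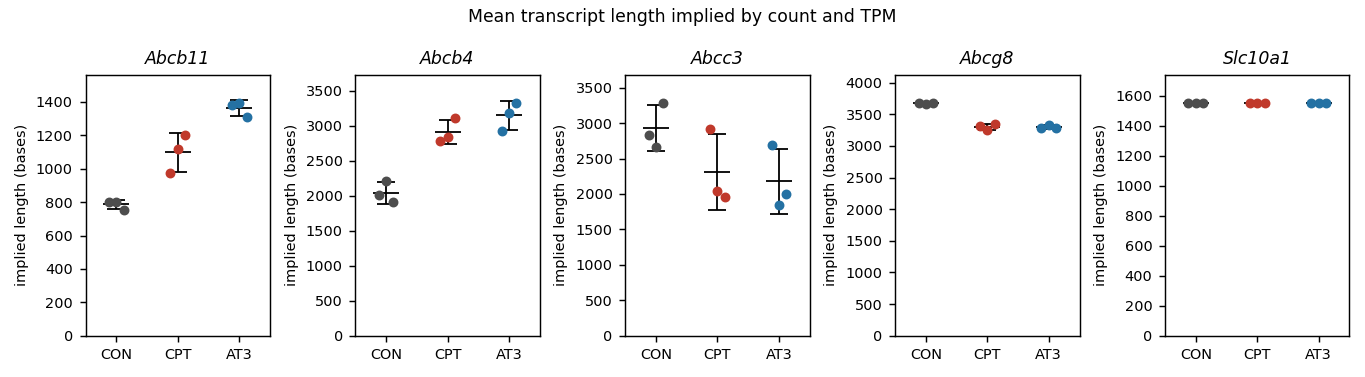
Implied length in bases (scaled ratio of estimated count to TPM, linear axes from 0) of Abcb11, Abcb4, Abcc3, Abcg8 and Slc10a1, with points for libraries and bars for the mean and SD. Abcb11 spans 755 to 803 bases in CON and 1310 to 1396 in AT3, Abcb4 is longer and Abcg8 shorter in CPT and AT3 than in CON, Abcc3 overlaps, and Slc10a1 lies on 1 level.

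For each gene the most similar profiles among 5419 genes of at least 10 CPM were sought by distance between centred log2 CPM over the 9 libraries. For Nr0b2 they were Ces1e, Keg1 and Hsd17b6, for Abcb11 Nit2, Cat and Ghr, and for Slco1a1 Apol9a, Ces1b and Slc22a30. Those nearest to Abcc3 were Sc5d, Psen2 and Gm48633, to Abcg8 Atl3, Nars2 and Ugt2b35, and to Abcg5 Sf1, Wnk1 and Dicer1. Nr1h4 lay nearest to Ncl, C1s2 and Mrps33, Slc10a1 to Psma6, Eif3d and Anapc5, Slco1b2 to Arl8b, Ireb2 and Btf3l4b, and Abcb4 to Gps1, Cox19 and Ift46. Among the 10 genes themselves, Abcb11 was the nearest member to Slco1a1 (rank 55) and to Abcc3 (rank 134). Abcg5 and Abcg8 were not each other's nearest: Abcb4 was nearest to Abcg5 (rank 462) and Slco1b2 to Abcg8 (rank 1450).

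Other genes of the pathway are given by lists, as tested by edgeR on counts, with the calls of limma on log2(TPM + 1) beside them. In CPT against CON the shares of all genes called in counts were 30.0% higher and 30.8% lower. On the TPM scale 6631 of all 13686 genes were called higher and 1604 lower, beside which the TPM splits of the lists stand. Of 9 further uptake carriers tested, 1 was higher and 5 lower in CPT than in CON (median -0.61, against -0.02 over all genes), and on the TPM scale 3 were higher and 2 lower (median -0.02, against 0.29). Slc10a2, the bile acid carrier best known from ileum, rose from 7.08 ± 1.63 to 22.7 ± 3.60 CPM (log2 fold change 1.69 ± 0.16, adjusted p = 2.17e-07), and AT3 stood at 25.6 ± 2.73. The organic anion carriers Slco2b1 (-1.03 ± 0.10) and Slco2a1 (-0.89 ± 0.12) fell, the latter without a call on the TPM scale (-0.19). Of the ileal genes Fabp6, Fgf15, Sis, Lct and Muc2, all were at 0 in all 9 libraries.

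Of 5 other basolateral exporters tested, 2 were lower in CPT (median -0.61): Abcc6 fell from 121 ± 5.60 to 38.5 ± 1.52 CPM (-1.65 ± 0.09, adjusted p = 6.29e-10) and Abcc5 by 1.34 on the log2 scale, with no call for Abcc5 in TPM (-0.012). The TPM calls were 2 higher and 1 lower (median 0.04). Slc51a and Slc51b, the 2 chains of the carrier OSTα-OSTβ, had values of 0.12 ± 0.15 and 0.26 ± 0.41 in counts and were not called there, and they are the 2 called higher in TPM (0.54 and 0.47). Of 8 other canalicular carriers, 2 were higher and 2 lower (median -0.05), and on the TPM scale 5 and 2 (median 0.25). Abcc2, the pump MRP2 for conjugated organic anions, rose from 88.8 ± 0.592 to 139.8 ± 11.7 CPM (0.65 ± 0.09, adjusted p = 1.71e-05). The organic cation exporter Slc47a1 fell from 78.1 ± 1.94 to 27.6 ± 2.14 CPM, and the efflux pump Abcg2 from 74.6 ± 6.09 to 32.4 ± 1.34. Atp8b1, the aminophospholipid flippase mutated in an inherited cholestasis, was not called in counts (-0.11 ± 0.12), while on the TPM scale it turned to 0.32 and was called (adjusted p = 0.0457).

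Of 10 canalicular scaffold and trafficking genes, 3 were higher and 3 lower (median 0.14), and on the TPM scale 5 and 1 (median 0.40). Rdx, encoding radixin, which links canalicular membrane proteins to actin, fell from 133 ± 13.6 to 47.7 ± 5.48 CPM (-1.48 ± 0.11, adjusted p = 1.33e-08), and the tight junction gene Cgn fell by 0.73, a call lost on the TPM scale (-0.072). The scaffold gene Pdzk1 rose by 0.85 ± 0.15. Myo5b (0.12), Vps33b (0.03) and Vipas39 (0.16), each linked to inherited disorders of bile flow, were not called in counts. In TPM Vipas39 was called higher in CPT (0.59, adjusted p = 0.00113), and all 3 were called higher in AT3 against CON (0.54, 0.36 and 0.67).

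Of 21 receptors and factors around FXR tested, 5 were higher and 9 lower in CPT (median -0.07), and on the TPM scale 10 and 4 (median 0.22). Fgfr4, the receptor for the gut hormone FGF15, fell from 31.7 ± 1.54 to 9.42 ± 1.41 CPM (-1.75 ± 0.12, adjusted p = 7.93e-09), and the xenobiotic receptor CAR (Nr1i3) fell by 1.21, a call lost on the TPM scale (-0.29). The related receptor PXR (Nr1i2) rose by 0.63 ± 0.09 and Rxra, the partner of FXR, by 0.32 ± 0.10 (adjusted p = 0.0127). Nr5a2, the gene for LRH-1, named after its values were seen, stood at 10.2 ± 0.370, 18.8 ± 3.27 and 20.3 ± 0.747 CPM in the 3 groups and rose in CPT (0.88 ± 0.12, adjusted p = 1.65e-05).

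Of 16 known FXR or SHP target genes tested, 5 were higher and 6 lower in CPT (median -0.09), and on the TPM scale 8 and 2 (median 0.38). Osgin1 fell from 334 ± 30.4 to 47.6 ± 9.24 CPM (-2.81 ± 0.13, adjusted p = 9.06e-11), whereas the lipoprotein gene Apoc2 rose by 2.60 ± 0.17 and the heparan sulfate proteoglycan gene Sdc1 by 1.60 ± 0.14. Cyp8b1, the sterol 12-hydroxylase, fell by 1.48 ± 0.15 (adjusted p = 5.40e-07). Cyp7a1, the rate-limiting enzyme of bile acid synthesis, stood at 13.5 ± 1.20, 12.3 ± 5.70 and 16.2 ± 3.07 CPM in CON, CPT and AT3 and was not called (-0.14 ± 0.23 in CPT, with the sign turned in TPM at 0.27, also not called). In AT3 against CON it was called higher in TPM (0.69, adjusted p = 0.0135) and not in counts.

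Of 14 genes of hepatic cholesterol transport and LXR action tested, 3 were higher and 7 lower in CPT (median -0.32), and on the TPM scale 7 and 1 (median 0.30). Abca1, the cholesterol exporter to lipoproteins, rose by 0.99 ± 0.11, while Srebf1 (-1.88 ± 0.14) and Lpcat3 (-0.74 ± 0.10) fell, Lpcat3 without a call in TPM (-0.21). Abcg8 and Abca1, both known LXR targets, had opposite signs in counts, with Abcg8 at -0.67, although Abcg8 had 0.07 on the TPM scale. Abcg5 was at -0.06 in counts and was not called there. LXR activity was not tested.

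**Figure D5:**
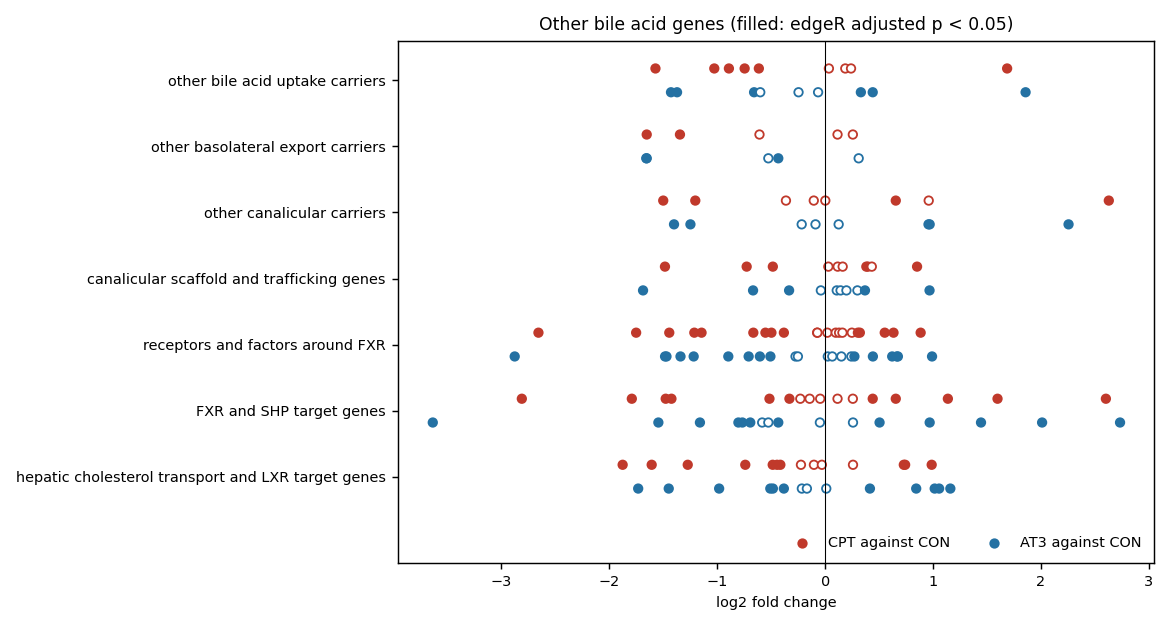
Log2 fold change against CON (edgeR on counts) of the other genes of 7 lists, 1 point a gene, for CPT and AT3, filled where the adjusted p is below 0.05. In counts every list except the basolateral exporters holds called genes on both sides of 0 in both groups, and on the TPM scale more of them were called higher. Over all genes tested more were also called higher on that scale, 6631 against 4107 in counts for CPT.

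In AT3 against CPT, where 4.68% of all genes were called in counts, 6 of the 7 lists held calls in counts, and none held any on the TPM scale. On that scale 45 of all 13686 genes were called. Among the other uptake carriers, 2 of 9 were lower, Slco1a4 (-0.76 ± 0.11, adjusted p = 0.00197) and Slco2b1 (-0.40 ± 0.10, adjusted p = 0.0345). Slc51a was lower among 5 exporters (-0.55 ± 0.15, adjusted p = 0.0443) and none of 8 canalicular carriers was called, with 1 at an unadjusted p below 0.05. The scaffold gene Slc9a3r1 (-0.44) was the call among 10, and Cebpa (-0.55) and Klb, the FGF15 co-receptor (0.64), were those among 21 receptors and factors. Among 16 target genes Osgin1 (-0.83), Pltp (-0.54) and Slc51a were lower, and among the cholesterol genes Stard4 (0.59) was higher.

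In AT3 against CON, where 31.5% of all genes were higher and 32.9% lower, the further uptake carriers split 3 higher and 3 lower of 9, the exporters 0 and 3 of 5, the canalicular carriers 3 and 2 of 8 and the scaffold genes 2 and 3 of 10. Receptors and factors split 6 and 9 of 21, the target genes 5 and 7 of 16 and the cholesterol genes 5 and 6 of 14. Osgin1 stood at 26.9 ± 0.980 CPM in AT3 (-3.64 ± 0.13 against CON), the lowest of the 3 groups. On the TPM scale the splits were 4 and 2, 0 and 1, 5 and 2, 7 and 1, 10 and 5, 7 and 2, and 7 and 1, in that order, and the call of Slc51a turned from lower to 0.18, not called. Over all 13686 genes, 7017 were called higher on that scale and 1698 lower.

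Markers of other liver cells were also counted, against 30.0% of all genes called higher and 30.8% lower in CPT. On the TPM scale 6631 of all 13686 genes were called higher in CPT and 1604 lower. Of 8 endothelial markers, 6 were lower in CPT (7 on the TPM scale), and their summed level spanned 96.9 to 101 CPM for CON, 21.4 to 30.6 for CPT and 25.8 to 33.3 for AT3. Of 7 Kupffer cell markers 5 were lower (4 on the TPM scale) and Marco was higher, with sums of 32.2 to 42.8, 13.5 to 15.1 and 14.1 to 16.7 CPM. Of 10 cholangiocyte markers tested 4 were lower (in TPM 3 higher and 1 lower), with sums of 40.1 to 50.8, 32.5 to 37.1 and 38.8 to 45.2 CPM, where AT3 overlapped CON. Of the 14 cholangiocyte markers listed, 1 (Cftr) was at 0 in all libraries. Of 11 hepatocyte markers 6 were higher and 3 lower in CPT (in TPM 8 and 0), and the albumin gene Alb, at 38560 ± 2553 CPM in CON, was not called in counts (-0.05 ± 0.14) and was called higher in TPM (0.54). Summed hepatocyte marker levels, Alb included, spanned 78710 to 84990 CPM for CON, 81370 to 105700 for CPT and 119500 to 127800 for AT3. In AT3 against CPT 4 of 11 were called higher, against 2.46% of all genes tested. On the TPM scale 1 of 11 was called higher, beside 29 of all 13686 genes. The part of cell makeup, mitochondrial share or haemoglobin in the results above was not tested.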

How the data were processed

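RNA from liver was sequenced in 9 libraries after preparation with a SMARTer kit, per the labels' protocols. The authors deposited estimated counts per gene with a gene length, and TPM values, which are scaled to length and to 1 total per library. Per the submitters' processing notes, builds were GRCm38, GRCm39 and mm10, with no role. For aligner, counting tool and strand: not given in the sources used here. Between 7.96% and 9.55% of estimated counts in a library were not whole, so they were rounded. Rows without a gene symbol numbered 1606.

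The 10 genes and all gene lists were chosen with earlier results of these data known. Counts were fitted over all 9 libraries with edgeR 4.0.16 (TMM, filterByExpr by group, quasi-likelihood test, Benjamini-Hochberg adjustment over 13686 genes). The SE is the log2 fold change divided by the square root of F. Alternatives were DESeq2 1.42.0, its size factors in edgeR, no filter, limma 3.58.1 on log2(TPM + 1) and log2(TPM + 0.1), the 6 libraries compared, leaving out mitochondrially encoded and the 10 most abundant genes, a replicate block, and leaving out each library. The fit was tested on simulated data. Ratios, shares and implied lengths were compared by exact two-sided permutation tests, and implied lengths, and the list calls on TPM, were added after seeing the data. Replicates differed by more than counting noise (chi-square per degree of freedom 7.08 to 97.2), so none was merged. The text names the 10 genes, up to 3 genes per list and comparison by smallest p, list genes known for bile flow or sterol defects, and the 3 nearest profiles; a few list genes are not reported here by name. Coordinates are GENCODE M21 (GRCm38), matched by gene ID, and promoters are RefSeq (GRCm38.p6), matched for 9 of the 10 genes. DR4, DR1, an HNF1-like motif, TTGCGCAA, TGTTTAC and CAAAGTCCA were also searched on both strands, in 0.0152%, 0.0396%, 0.0609%, 0.183%, 3.65% and 0.475% of windows and in 0 of the 9 genes; CCGCCC was in 35.7% and in 2.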

Additional observations from a re-analysis of the deposited data

How the results depend on the processing

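Nr0b2, Abcb11, Slco1a1 and Slc10a1 kept their direction and call against CON, in CPT and in AT3, under every alternative listed, including each left-out library. On log2(TPM + 1) and log2(TPM + 0.1), Abcc3 kept its direction without a call, and Abcg8 turned to 0.075 and 0.082 in CPT and to 0.25 and 0.27 in AT3. Abcg5 turned to 0.50 and 0.53 in CPT and to 0.64 and 0.68 in AT3 against CON, Slco1b2 to 0.57 and 0.58 in CPT and to 0.36 and 0.37 in AT3, and Slc10a1 in AT3 against CPT to 0.067 and 0.067. On these 2 scales genes called higher in CPT against CON numbered 6631 and 6665 and lower 1604 and 1582, against 4107 and 4219 in counts. In AT3 against CON they numbered 7017 and 7037 higher and 1698 and 1679 lower, against 4312 and 4501. Of the 10 genes 4 and 4 were then higher and 3 and 3 lower in CPT, and 3 and 3 higher and 3 and 3 lower in AT3. The all-gene median on log2(TPM + 0.1) was 0.51 in CPT and 0.57 in AT3. In AT3 against CPT, these scales called 45 (29 higher, 16 lower) and 32 (20 higher, 12 lower) genes, and no filter called 1174 (617 higher, 557 lower), 1 of them among the 10, Slco1a1, which was lower.

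Values near 0 changed sign without a call in counts. Slco1b2 in CPT against CON was 0.0042 by DESeq2, 0.0042 with its size factors, 0.076 with no filter and 0.0023 without the most abundant genes. Abcg5 in CPT was 0.025 with no filter, and in AT3 against CON 0.013 by DESeq2, 0.014 with its size factors, 0.081 with no filter, 0.011 in the 6 libraries and 0.023 without the most abundant genes. Abcb4 in AT3 against CON was 0.017 with no filter. The cause was not tested.

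Leaving out each library gave ranges that crossed 0 in CPT against CON for Abcb4 (-0.0036 to 0.15), Slco1b2 (-0.16 to 0.11) and Abcg5 (-0.095 to 0.0084), in AT3 against CPT for Nr0b2 (-0.041 to 0.28) and Slc10a1 (-0.15 to 0.037), in AT3 against CON for Abcg5 (-0.038 to 0.065), and for the Abcg8 to Abcg5 ratio (-0.060 to 0.15) and the Slco1a1 to Slco1b2 ratio (-0.21 to 0.083) in AT3 against CPT. Genes called in AT3 against CPT ranged from 172 to 1316 (93 to 766 higher, 69 to 550 lower), and calls among the 10 from 0 to 1, all lower. Of the 10, 1 to 2 were called higher in CPT, the change being Nr1h4.

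Libraries of the same replicate number deviated together little (correlations -0.038 to 0.076), so the numbers were not taken to pair the samples. In AT3 against CPT the same-number correlations were 0.052, 0.076 and 0.067, and those of different numbers were all negative (-0.058 to -0.018). With the replicate block, 451 genes were called in AT3 against CPT, and Slco1b2 in AT3 against CON stood at -0.32 (adjusted p = 0.0513) and was no longer called, as also with no filter on low counts (-0.23, adjusted p = 0.0906). The block changed no other call among the 10. With 3 libraries a group, the exact tests cannot give a p below 0.1.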

Other observations

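Some genes of the lists, named here after their values were seen, add detail. Abcb1b and Abcb1a, the 2 mouse P-glycoprotein genes and close paralogs of Abcb4, whose reads the counting could split, stood low: Abcb1b at 0.208 ± 0.0831 CPM in CON, 1.26 ± 0.354 in CPT and 0.966 ± 0.249 in AT3 (log2 fold change 2.63 ± 0.45 in CPT, adjusted p = 0.000128), and Abcb1a at 0.350 ± 0.0762, 0.700 ± 0.129 and 0.696 ± 0.130. Nr1h5, which encodes the receptor FXR-beta, fell from 1.25 ± 0.457 CPM in CON to 0.195 ± 0.0355 in CPT and 0.171 ± 0.112 in AT3 (-2.66 ± 0.50 in CPT, adjusted p = 0.000263). Its rounded counts were few: 13, 37 and 28 in CON, 6, 7 and 4 in CPT, and 5, 2 and 8 in AT3. The bile acid conjugation gene Baat rose from 103 ± 14.2 to 139.6 ± 8.61 CPM in CPT (0.44 ± 0.10, adjusted p = 0.00174), and AT3 stood at 146 ± 4.43. The membrane receptor gene Gpbar1 had a mean of at most 0.0523 CPM in any group and was not tested.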
